A study of Mus musculus with 25 samples.

Results

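Dystrophin is a long rod-shaped protein under the membrane of the muscle fiber. It ties the actin cytoskeleton to dystroglycan, which spans the membrane and binds laminin outside the cell. Sarcoglycans form a second membrane complex beside dystroglycan, while syntrophins and dystrobrevins bind to dystrophin from the inside and hold signaling proteins there, among them the neuronal nitric oxide synthase nNOS. Loss of dystrophin or of a sarcoglycan causes muscular dystrophy, and nNOS then leaves the membrane. Spin1 is a nuclear protein that reads H3K4me3, the trimethylated lysine of histone H3 found at the starts of active genes. The peaks described here are those at the genes of this complex.

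The members were 8 genes, set by name, of 26182 genes in the curated RefSeq annotation. They are Dmd (dystrophin), Dag1 (dystroglycan), Sgca, Sgcb and Sgcd (α-, β- and δ-sarcoglycan), Sntb1 (β1-syntrophin), Dtna (α-dystrobrevin) and Nos1 (nNOS). A gene was located by its RefSeq coordinates, and its peaks were sought within 1 kb of each transcription start site (TSS±1 kb), inside the gene and within 50 kb on either side. TSSs of a gene that followed each other within 500 bp were counted as 1 promoter, so that the 29 curated transcripts of the 8 genes gave 11 promoters. Dmd had 2 of them, Dtna had 3, and each of the other genes had 1.

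The cells were primary myoblasts, cultured muscle precursors from limb muscle of C57BL/6 mice (C57BL/6 N in the study's methods) at the age of 10 days, enriched by preplating, which removes cells that stick early to the dish. No genetic change or treatment is given for them. A custom antibody against Spin1 gave 1 library and the H3K4me3 antibody, which a label calls anti-H3K4me, gave 1 library, so there were no replicates, no test was possible and all values below describe these 2 libraries. The other 23 of 25 samples, which are the input and the RNA-seq of control and Spin1-deleted muscle, were not analysed here, so nothing below speaks of the expression of these genes. Myoblasts have not fused to fibers, and the complex is known as a structure of fibers.

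The Spin1 list held 17106 peaks and the H3K4me3 list 30763. Each peak has a MACS score, which is minus log10 of its p-value against input multiplied by 10. The score grows with depth and width and was compared only within a list. Scores pile up at 3100, which 30.9% of the peaks for Spin1 and 45.2% of those for H3K4me3 reached, so peaks at that value have no order. Among all protein-coding genes, 56.7% had Spin1 and 68.0% had H3K4me3 at a promoter, and 56.7% had both. All 10 myoblast markers (such as Myod1, Pax7 and Cdh15) had both peaks at a promoter. Of 8 markers of differentiated fibers, 5 had H3K4me3 and 2 had Spin1, and of 8 fibroblast markers 8 had H3K4me3 and 5 had Spin1. None of the 4 endothelial and 4 blood markers had Spin1, and 3 and 1 of them had H3K4me3. The 4 neuron markers had H3K4me3 in 4 and Spin1 in 0 cases, and the 3 Schwann cell markers in 2 cases and 1 case. A histone mark at a marker gene does not measure how many such cells were present, and their part in the results below was not tested.

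Of the 8 genes, 6 had a Spin1 peak at a promoter, against 56.7% of 21000 protein-coding genes. The same 6 genes had H3K4me3 at a promoter, against 68.0% of protein-coding genes, and all 6 had both peaks at the same promoter, against 56.7%. Sgca and Nos1 had neither peak at their curated promoter. The 6 genes were Dmd, Dag1, Sgcb, Sgcd, Sntb1 and Dtna. Dmd had Spin1 at only 1 of its 2 promoters, and not at that of full-length dystrophin. Counted by promoter, 7 of 11 had Spin1, against 53.8% of 24168 promoters of protein-coding genes. H3K4me3 lay at 9 of 11, against 66.1%, and both at 7 of 11, against 53.7%. With 8 genes these counts lie near the background and set the group apart in neither direction.

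**Figure D1:**
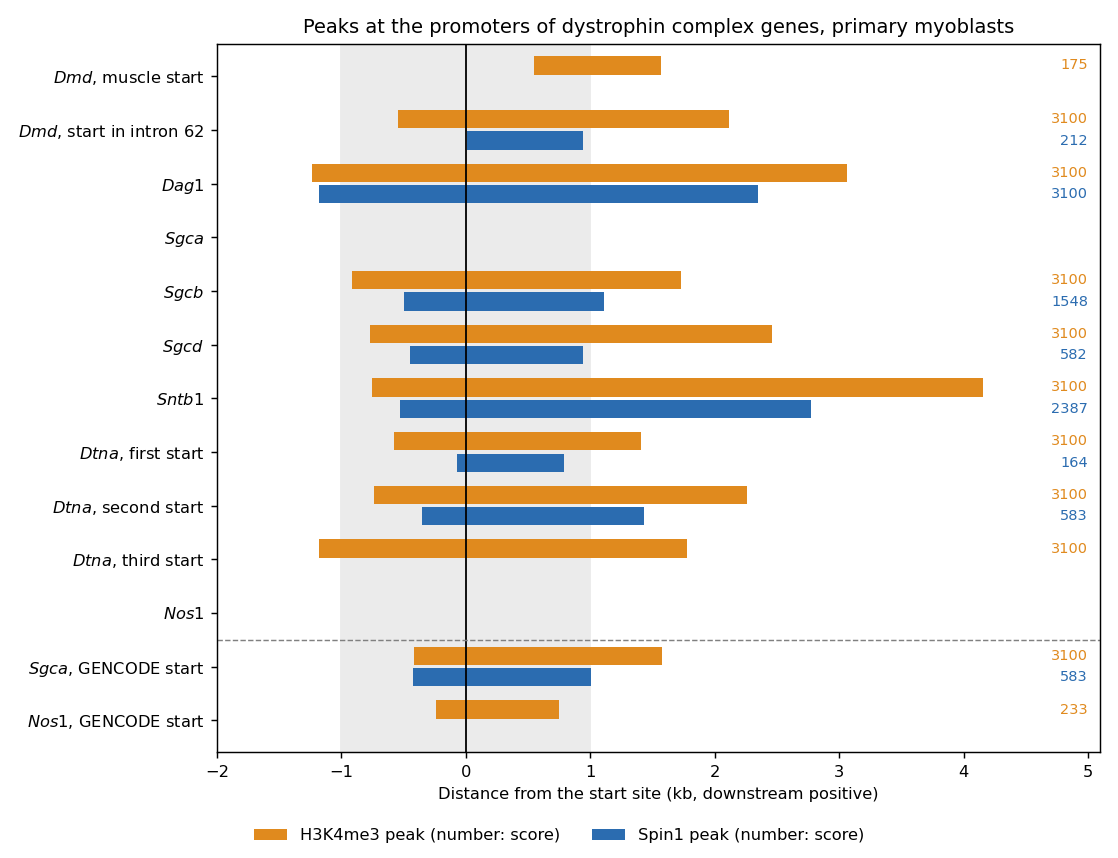
Extent of the H3K4me3 (orange) and Spin1 (blue) peaks around the 11 curated promoters and, below the dashed line, around a GENCODE start of Sgca and of Nos1. The x axis is the distance from the start site in kb, the gray band is TSS±1 kb, and the numbers at the right are peak scores. The 7 Spin1 peaks at curated promoters each lie within an H3K4me3 peak, and the curated starts of Sgca and Nos1 have none.

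The Spin1 peaks at the members' promoters were mostly weak and narrow beside those at all promoters, which were not matched for CpG content. Their scores ran from 164 to 3100 with a median of 583, while the 11797 Spin1 peaks at all promoters had a median of 2572, and 6 of the 7 fell under that value. Their widths ran from 862 to 3532 bp with a median of 1609 bp, and 5 of 7 were narrower than the median of 2167 bp. Of the 9 H3K4me3 peaks at the members' promoters, 8 had a score of 3100, and 84.1% of all H3K4me3 peaks at promoters had 3100 or more. Their median width was 2958 bp, that of all such peaks 3029 bp, and 6 of the 9 were narrower than the latter. At the 7 promoters with both, the whole Spin1 peak lay inside the H3K4me3 peak, against 92.3% of 12982 promoters. The center of the Spin1 peak was downstream of the TSS at all 7, against 79.8%. The Spin1 peak covered from 35.1 to 82.1% of the H3K4me3 peak. The median over the 11449 promoter H3K4me3 peaks that overlapped Spin1 was 65.8%. This share was under that median at 5 of the 7 and under the lower quartile of 55.5% at 3.

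Dmd, on chrX:82948870-85205050 (GRCm38, plus strand), is 2256 kb long and the second longest protein-coding gene of the annotation. Its curated transcripts start at 2 places, at the muscle promoter in front of exon 1 of 79 and at a start inside intron 62, 2099 kb further on. The muscle start makes full-length dystrophin, and the inner start makes Dp71, a short dystrophin that lacks the actin-binding end and the rod and is found in many tissues. The muscle start had no Spin1 peak. Its only H3K4me3 peak, at chrX:82949420-82950439, had a score of 175, began 550 bp downstream of the TSS and ended 1569 bp downstream. This peak did not cover the TSS itself and lay outside TSS±0.5 kb. Its score was higher than that of only 3.98% of H3K4me3 peaks at promoters, and its width of 1020 bp than only 5.36%.

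The inner start showed the other picture. The H3K4me3 peak there, chrX:85047750-85050407, was 2658 bp wide, had a score of 3100 and covered the TSS. A Spin1 peak at chrX:85048306-85049239 was 934 bp wide, had a score of 212 and reached from 11 to 944 bp downstream of the TSS. It was a weak peak, with a score above 8.54% of Spin1 promoter peaks. Spin1 at Dmd was thus placed at the start of the short product and not at that of full-length dystrophin. Dmd was with Dtna 1 of 2 members with more than 1 promoter, and both had Spin1 at some but not all of them, as had 38.7% of 2448 protein-coding genes with more than 1 promoter.

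The 2 starts of Dmd also differed in sequence. In the kb around the muscle start 36.8% of bases were G or C, which was higher than at 3.24% of promoters. The ratio of observed to expected CpG dinucleotides was 0.152 there and 0.521 around the inner start. The windows from 250 bases before to 50 after each start are printed from RefSeq to show this contrast, on the plus strand of GRCm38 at chrX:82948620-82948919 and chrX:85048045-85048344, with each CG in capitals.
Dmd muscle start: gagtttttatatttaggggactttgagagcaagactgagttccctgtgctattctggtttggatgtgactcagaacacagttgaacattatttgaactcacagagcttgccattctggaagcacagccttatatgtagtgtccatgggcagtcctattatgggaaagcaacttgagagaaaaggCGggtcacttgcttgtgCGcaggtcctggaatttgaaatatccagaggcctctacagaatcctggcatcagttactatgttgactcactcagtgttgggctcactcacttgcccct
Dmd inner start: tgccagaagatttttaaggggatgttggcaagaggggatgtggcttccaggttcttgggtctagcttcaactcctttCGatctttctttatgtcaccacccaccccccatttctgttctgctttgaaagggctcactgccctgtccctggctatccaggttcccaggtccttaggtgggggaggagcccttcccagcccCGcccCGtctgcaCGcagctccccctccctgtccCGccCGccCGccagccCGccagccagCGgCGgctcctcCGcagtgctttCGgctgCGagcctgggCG
The muscle window held 2 CG and the inner window 14, which is the median of 20488 such windows. The muscle window held 3 E-boxes (CANNTG, the motif of MyoD and related factors, in 68.7% of windows), at 173 and 61 bases before and at base 40 after the start. It also held a CArG box, the motif of serum response factor, at 98 bases before the start, and a match to the MEF2 motif. A CArG box was found in 1.51% of windows and a MEF2 match in 2.6%. The inner window held none of these 3 motifs.

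Further along Dmd, no Spin1 peak lay inside the gene outside its promoters. H3K4me3 had 1 such peak, chrX:85084360-85085466 in intron 63, with a score of 238. RefSeq's predicted models and GENCODE M21 place 16 further starts for Dmd, and 15 had neither peak within 1 kb, among them starts in introns 1, 29, 44 and 55. The exception was a predicted start 134.21 kb upstream of the muscle start, with an H3K4me3 peak at chrX:82814095-82815785 with a score of 1202 and no Spin1. This was a stronger and wider peak than the one near the muscle start, and it covered the predicted TSS. No peak of either list lay in the 50 kb on each side of the gene.

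**Figure D2:**
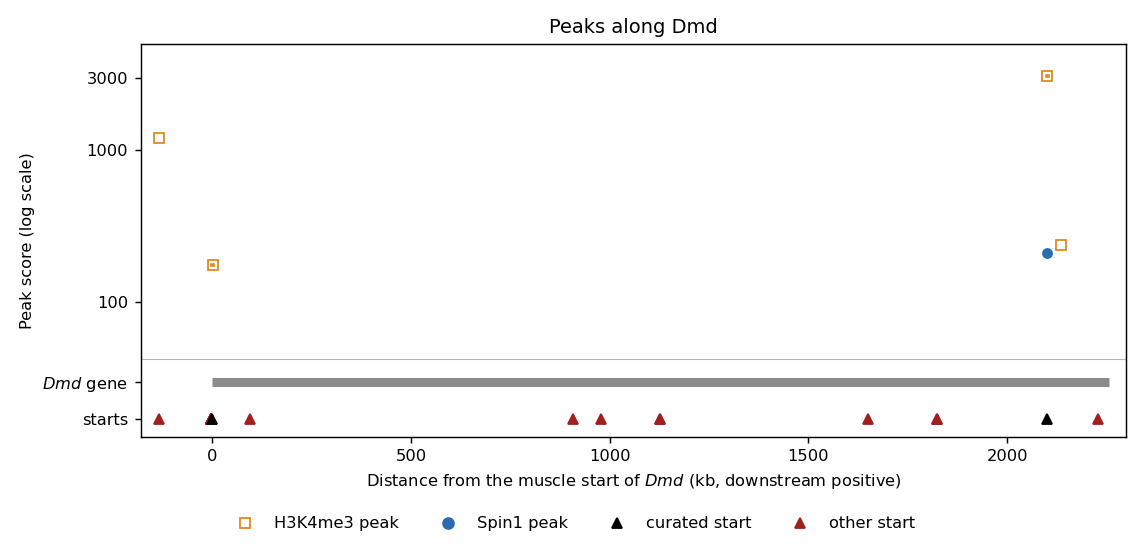
Peaks along Dmd by distance from the muscle start in kb, with the score of each peak on a log axis. Open squares are H3K4me3 peaks, the filled circle is the Spin1 peak, black triangles are curated and red triangles other annotated starts. The muscle start has an H3K4me3 peak with a score of 175, and the inner start at 2099 kb has a score of 3100 for H3K4me3 and 212 for Spin1.

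Dag1, on chr9:108204861-108263958 (minus strand), encodes the precursor that is cut to α- and β-dystroglycan, the laminin receptor of the complex. It had the strongest and widest Spin1 peak among the members. The peak at chr9:108261608-108265139 was 3532 bp wide, wider than 87.3% of Spin1 promoter peaks, and had a score of 3100. The H3K4me3 peak, chr9:108260893-108265194, was 4302 bp wide with a score of 3100, and 82.1% of it was covered by Spin1. The 7 curated transcripts start at 2 TSSs that count as 1 promoter, and both peaks covered it. Its CpG ratio of 0.899 was the highest among the 11 promoters. The window at its outer TSS, chr9:108263909-108264208 on the minus strand, is printed with CG in capitals as the CpG-rich end of the group.
Dag1 start: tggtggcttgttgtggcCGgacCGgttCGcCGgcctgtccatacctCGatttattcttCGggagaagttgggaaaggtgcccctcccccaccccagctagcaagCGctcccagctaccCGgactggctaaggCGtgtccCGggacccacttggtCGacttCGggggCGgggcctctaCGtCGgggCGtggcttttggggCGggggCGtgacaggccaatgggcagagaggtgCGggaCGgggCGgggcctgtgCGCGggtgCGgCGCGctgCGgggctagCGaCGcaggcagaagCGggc
It held 30 CG and 1 E-box. Inside Dag1, 2 further H3K4me3 peaks with scores of 61.3 and 193 lay in intron 1, without Spin1. The flanks held 3 Spin1 peaks, all at promoters of other genes, namely Bsn, Nicn1 and the shared start region of Rhoa and Tcta.

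The sarcoglycans span the membrane beside dystroglycan. Sgcb and Sgcd were occupied and Sgca was not, at the curated start. At Sgcb, chr5:73632749-73647737 (minus strand), the H3K4me3 peak was 2641 bp wide with a score of 3100. The Spin1 peak at chr5:73646628-73648236 was 1609 bp wide with a score of 1548, and reached from 499 bp upstream to 1109 bp downstream of the TSS. Spata18 starts 3.64 kb away on the other strand and had a Spin1 peak of its own with a score of 182, so these neighbors carried separate peaks. At Sgcd, chr11:46971079-47379325 (minus strand), H3K4me3 was 3232 bp wide with a score of 3100. Spin1 at chr11:47378384-47379777 was 1394 bp wide with a score of 582. Sgcd also has a predicted start 610.13 kb upstream of the curated one. Both peaks lay there too, H3K4me3 with a score of 3100 and Spin1, 800 bp wide, with a score of 208. A GENCODE start between these, 199.64 kb upstream, had neither. Inside Sgcd was 1 H3K4me3 peak with a score of 213, in intron 2, and no Spin1 peak.

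Sgca, on chr11:94962777-94976327 (minus strand), encodes α-sarcoglycan, whose expression is known to be largely restricted to striated muscle. TSS±1 kb of its single curated transcript held no peak. The gene nevertheless carried both peaks, further inside. The H3K4me3 peak at chr11:94971887-94973882 was 1996 bp wide with a score of 3100. The Spin1 peak at chr11:94972458-94973891 was 1434 bp wide with a score of 583. It was the only Spin1 peak inside any of the 8 genes and outside the curated promoters. Both peaks covered the start of the GENCODE basic transcript of Sgca, 2.86 kb downstream of the curated start and in what RefSeq annotates as exon 2 of 11. Measured from this start, Spin1 reached from 428 bp upstream to 1005 bp downstream, and at Sgcd Spin1 reached from 452 bp upstream to 941 bp downstream. A predicted RefSeq start lay within the same peaks. With GENCODE basic transcripts in place of curated RefSeq, 7 of the 8 genes had Spin1, against 55.4% of 21938 protein-coding genes in that set. The empty promoter of Sgca therefore rests on the choice of annotation.

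Windows of the same length at both Sgca starts are printed to set the empty start beside the occupied one, the curated at chr11:94976278-94976577 and the GENCODE at chr11:94973414-94973713, both on the minus strand with E-boxes (CANNTG) in capitals.
Sgca curated start: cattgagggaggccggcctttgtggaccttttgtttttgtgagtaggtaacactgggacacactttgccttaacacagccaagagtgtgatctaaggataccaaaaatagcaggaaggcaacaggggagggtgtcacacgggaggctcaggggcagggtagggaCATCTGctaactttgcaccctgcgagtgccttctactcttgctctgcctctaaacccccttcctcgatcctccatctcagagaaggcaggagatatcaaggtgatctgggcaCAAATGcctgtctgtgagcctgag
Sgca GENCODE start: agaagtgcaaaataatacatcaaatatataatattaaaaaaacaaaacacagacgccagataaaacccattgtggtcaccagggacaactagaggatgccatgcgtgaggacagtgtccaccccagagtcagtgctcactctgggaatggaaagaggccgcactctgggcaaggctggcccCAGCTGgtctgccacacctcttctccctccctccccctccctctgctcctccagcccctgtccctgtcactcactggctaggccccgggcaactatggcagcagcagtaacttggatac
The curated window held 2 E-boxes and the GENCODE window 1, which has the letters CAGCTG and lies 69 bases before the start. CAGCTG was found in 15.8% of 20488 windows. The GENCODE window also held CATTCC, the motif of TEAD factors, at 107 bases before the start, as 13.3% of windows did on either strand. Both windows held 4 CG. The CpG ratio was 0.162 around the curated and 0.202 around the GENCODE start. Among curated promoters with a ratio within 0.05 of the latter, 8.20% had Spin1 and 18.0% had H3K4me3. The GENCODE start was taken up after the data were seen, so these shares cannot show that its peaks are unusual. A match to a motif is a description of the letters and no measurement of a factor.

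Upstream of the curated Sgca start, an H3K4me3 peak without Spin1 was centered 2.81 kb away, with a score of 391. The flanks of Sgca held 10 of 15 peaks for Spin1 found in the flanks of all 8 genes. For H3K4me3 they held 13 of 22. Those at promoters belonged to Col1a1, Ppp1r9b and Samd14. A further 3 of the Spin1 and 3 of the H3K4me3 flank peaks lay inside Col1a1 and outside its promoter.

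Sntb1 and Dtna encode cytoplasmic partners of dystrophin. At Sntb1, chr15:55639154-55906949 (minus strand), H3K4me3 was the widest among the members, 4911 bp, with a score of 3100. The Spin1 peak at chr15:55904177-55907481 was 3305 bp wide with a score of 2387 and reached 2772 bp downstream of the TSS. Its center lay 1120 bp downstream, outside TSS±1 kb, as did that of H3K4me3, so that Sntb1 was lost when a peak's center had to lie in the window. Inside Sntb1 were 3 H3K4me3 peaks in intron 1 with scores of 64.6, 162 and 245, and no Spin1.

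Dtna, chr18:23310020-23659719 (plus strand), had 3 promoters in order along the gene. The first had H3K4me3 with a score of 3100 and Spin1, 862 bp wide, with a score of 164, the lowest of the 7. The next, 105.39 kb downstream in intron 1, had H3K4me3 with a score of 3100 and Spin1, 1790 bp wide, with a score of 583. The last, 187.46 kb downstream in intron 2, had an H3K4me3 peak of 2958 bp with a score of 3100 that covered the TSS, and no Spin1 peak. Of the 11 curated transcripts, 1 began at the first promoter, 6 at the next and 4 at the last. Inside Dtna and outside its promoters, 1 H3K4me3 peak at chr18:23521411-23521984 in intron 2 had a score of 256, without Spin1. The last promoter of Dtna and the muscle promoter of Dmd were the 2 of 9 H3K4me3 promoters among the members without Spin1, against 18.7% of all H3K4me3 promoters. They differed in H3K4me3, which had a score of 3100 over the TSS of Dtna and of 175 beside the TSS of Dmd.

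The CpG ratio of a promoter, within 0.5 kb of the TSS, moved with both peaks over the whole annotation. Of the 11222 promoters with a ratio of 0.6 or more, 90.3% had Spin1 and 99.1% had H3K4me3, and of the 12946 with a lower ratio 22.1 and 37.5%. The members had a median of 0.427, against 0.56 for all, and 4 of 11 were at or above 0.6, namely those of Dag1, Sgcb, Sntb1 and the first of Dtna. All 4 had both peaks. Of the 7 below 0.6, 3 had both peaks, 2 had H3K4me3 alone and 2 had neither. The inner start of Dmd, at 0.521, was of a kind with Spin1 at 57.9% and H3K4me3 at 88.5% of promoters. The promoter of Sgcd, at 0.384, had both peaks where 30.7% of like promoters had Spin1. The middle promoter of Dtna, at 0.295, had both where 16.7% had Spin1. The muscle start of Dmd had H3K4me3 where 10.7% did. Among the 7 promoters with Spin1 the order of Spin1 scores was not that of the ratios, since the first promoter of Dtna had a ratio of 0.639 and the lowest score.

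**Figure D3:**
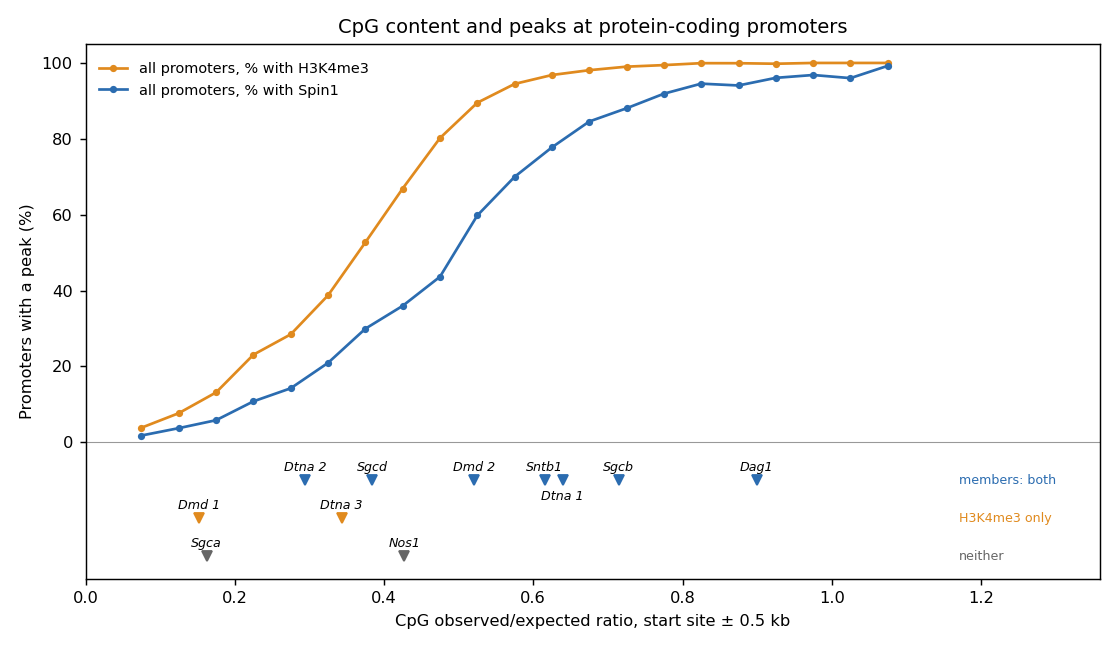
Share of protein-coding promoters with an H3K4me3 (orange) or Spin1 (blue) peak within TSS±1 kb, in percent, by the ratio of observed to expected CpG within 0.5 kb of the start. Triangles under the curves mark the 11 members' promoters at their ratio, by whether they had both peaks, H3K4me3 only or neither. The members run from 0.152 at the muscle start of Dmd to 0.899 at Dag1.

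Inside the genes and outside their promoters, the members held 10 H3K4me3 peaks and 1 Spin1 peak. The H3K4me3 scores ran from 61.3 to 3100 with a median of 203, and the peak in Sgca was the only one that overlapped Spin1. All 4 genes of 100 kb or more (Dmd, Sgcd, Sntb1 and Dtna) had such an H3K4me3 peak, against 58.2% of 2317 protein-coding genes of that length. None of the 4 had such a Spin1 peak, against 28.8%. Per length, these 4 genes held 1.83 H3K4me3 peaks per Mb and 0 Spin1 peaks, while all genes of that length held 7.04 and 2.47 per Mb. The pooled H3K4me3 value leans on Dmd, the longest, with 0.443 per Mb. Sgcd had 2.45, Dtna 2.86 and Sntb1 11.2 per Mb, so only Sntb1 lay above 7.04. The Sntb1 value leans on peaks centered 4.69 and 5.41 kb from its TSS, just past its promoter H3K4me3 peak, which reached 4158 bp downstream. Of the 4 shorter genes, 3 had H3K4me3 inside, against 19.6%, and Sgca alone had Spin1, against 8.39%. Both peaks in Sgca covered its GENCODE start. The classes were not matched for length within them. Dag1 and Nos1 were longer than 83.7 and 89.7% of all genes, and Sntb1, the shortest of the long members, was 268 kb long. The part of length in these shares was not tested.

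Nos1, on chr5:117866839-117958840 (plus strand), encodes nNOS, which binds the complex through syntrophin and makes nitric oxide during contraction. It was the member without a Spin1 peak under either annotation. The curated start had neither peak within 1 kb. GENCODE places 5 further starts, and 4 of them, in front of the gene, had weak H3K4me3. The peak at chr5:117841609-117842596, centered 24.74 kb upstream of the curated start, was 988 bp wide with a score of 233 and covered the start of the GENCODE basic transcript and another start. The peak at chr5:117780647-117781169 had a score of 62.4 and lay over 2 starts, of which the farther was 85.81 kb upstream. A peak with a score of 109 lay in intron 21 of the gene. None of these 3 overlapped Spin1. The nearest Spin1 peak, with a score of 2565, was centered 18.36 kb past the end of Nos1 at the promoter of Fbxo21.

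The curated start of Nos1 and the GENCODE start under the H3K4me3 peak, both without Spin1, are printed to set their unlike CpG content side by side. They lie at chr5:117866589-117866888 and chr5:117841600-117841899 on the plus strand, with CG in capitals.
Nos1 curated start: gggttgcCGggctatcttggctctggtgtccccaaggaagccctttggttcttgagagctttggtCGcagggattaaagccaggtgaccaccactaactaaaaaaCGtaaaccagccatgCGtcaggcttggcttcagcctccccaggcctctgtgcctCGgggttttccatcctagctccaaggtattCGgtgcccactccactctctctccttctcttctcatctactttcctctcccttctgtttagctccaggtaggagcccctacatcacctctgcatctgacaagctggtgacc
Nos1 GENCODE start: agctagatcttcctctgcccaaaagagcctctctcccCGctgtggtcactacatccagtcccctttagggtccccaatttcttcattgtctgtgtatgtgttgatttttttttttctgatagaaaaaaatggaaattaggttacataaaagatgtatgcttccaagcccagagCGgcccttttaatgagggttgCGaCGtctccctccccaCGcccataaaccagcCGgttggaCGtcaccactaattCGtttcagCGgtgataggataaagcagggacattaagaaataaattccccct
They held 6 and 9 CG. In the kb around the start the CpG ratio was 0.427 at the curated start, where 36.7% of like promoters had Spin1 and 67% had H3K4me3. It was 0.603 at the GENCODE start, where 74.7% had Spin1 and 95.9% had H3K4me3. The curated window held 2 E-boxes, 1 of them CAGGTG as in 19.6% of windows, and the GENCODE window held none. Directly before the curated start lies a run of mostly C and T that ends in AG, as the ends of introns do. Whether transcription begins at this start was not tested, so the empty curated promoter of Nos1 also depends on the annotation.

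**Figure D4:**
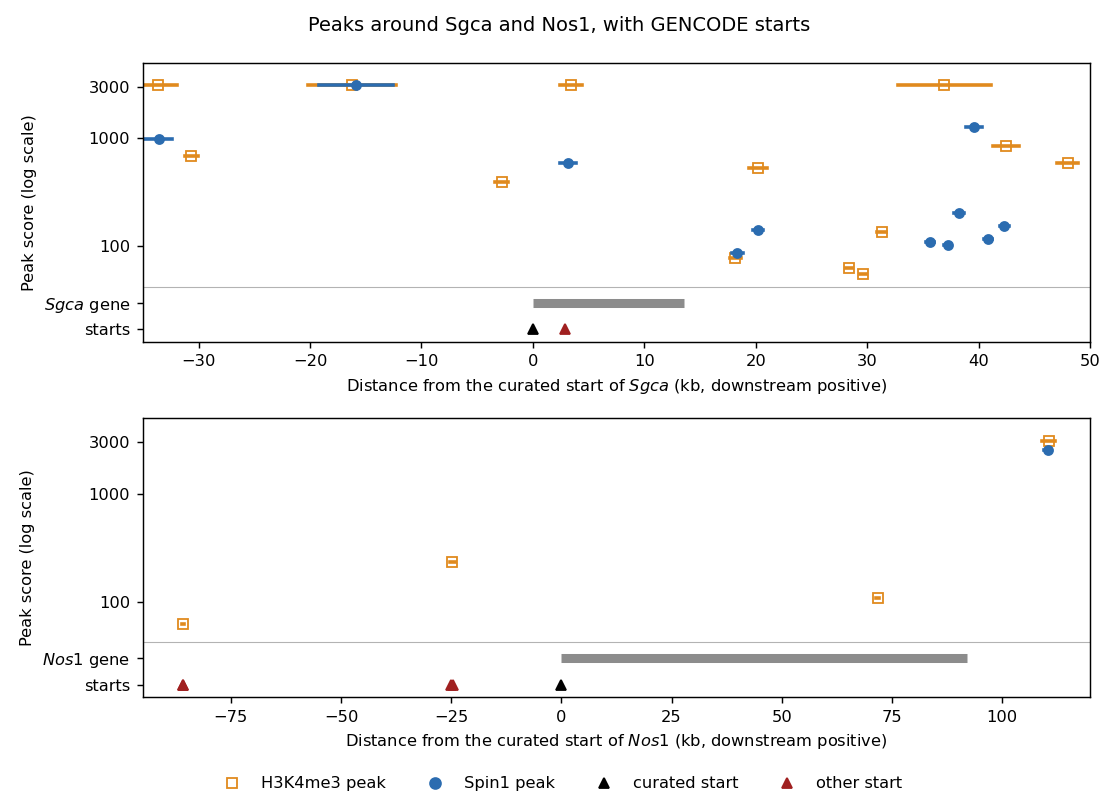
Peaks around Sgca (top) and Nos1 (bottom) by distance from the curated start in kb, with the score on a log axis. Lines give the extent of each peak, open squares are H3K4me3, filled circles Spin1, the gray bar is the gene, black triangles are curated and red triangles GENCODE starts. At Sgca both peaks lie over the GENCODE start at 2.86 kb, and at Nos1 the starts in front of the gene have H3K4me3 with scores of 233 and 62.4 and no Spin1.

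Further genes, called other complex genes below, were read in the same way. The list mixes parts of the complex with genes outside it, such as Nos2, Nos3, Dysf and Capn3. Of 19, 12 had Spin1 at a promoter, against 56.7% of protein-coding genes, and 17 had H3K4me3, against 68.0%. Each of the 12 had both at one promoter. Among them were Cav3 (caveolin 3 of the fiber membrane), with a Spin1 score of 954, and Sgce (ε-sarcoglycan), with 2876. Of the 12, only Sgce, Sntb2 and Sspn had a Spin1 score above 2572, the median at all promoters, so mostly lower scores were not particular to the members. H3K4me3 alone was found at Sgcz, Sntg1, Sntg2, Nos2 and Capn3, of which Sgcz encodes a sarcoglycan and Sntg1 and Sntg2 encode syntrophins. Utrn, which encodes the dystrophin relative utrophin, had neither at its curated promoter but held 7 H3K4me3 peaks inside the gene. Nos3, the endothelial synthase, also had neither. With curated and predicted transcripts, 13 of the 19 had Spin1 and 18 had H3K4me3, so an empty promoter of Utrn or Nos3 depended on the annotation. The share over all genes was not computed for that set. None of the 3 nitric oxide synthase genes (Nos1, Nos2 and Nos3) had Spin1 at a curated promoter, where 56.7% of protein-coding genes had it. At promoters with a CpG ratio like that of the curated Nos1 start the share was 36.7%. These 3 were not a group set beforehand. Against 56.7% of protein-coding genes, both peaks were found at 17 of the 17 genes that glycosylate dystroglycan for laminin binding, such as Pomt1. Promoters of these glycosylation genes had a median CpG ratio of 0.729, and 15 of 19 were at 0.6 or more. Those of the 19 other complex genes had a median of 0.41, and 8 of 29 were at 0.6 or more.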

How the data were processed

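ChIP-seq of primary myoblasts gave 1 Spin1 and 1 H3K4me3 library. The authors mapped reads to mm10 (GRCm38) with bowtie 2 and called peaks against input with MACS 1.4.2, as the paper's methods and the submitters' processing notes state. The deposited files give each peak's position and its score. They hold no read counts, so depth is unknown, and a peak that was too weak to be called leaves no trace.

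Peaks were compared with 45756 curated RefSeq transcripts of GRCm38.p6. TSSs of a gene within 500 bp formed 1 promoter, the window was TSS±1 kb, and an overlap of 1 bp counted. Coordinates count from 1. CpG ratios used TSS±0.5 kb. Motifs were sought on both strands of RefSeq windows from 250 bases before to 50 after the start, with CANNTG also counting CAGCTG and CAGGTG. Of the members, Dmd, Dag1, Sgca, Sgcb, Sgcd and Nos1 matched this table, and Sntb1 and Dtna are named only. GENCODE windows were read from the genome. Without replicates no test was run, and members' counts are given beside the share over all protein-coding genes. All members and promoters are named, with every inside peak as there were 10 or fewer in each list, and flank peaks by the promoters they overlap. Other complex genes were named by class, and the 2 given with scores were picked once these were known. Some genes of these lists are counted but not reported here by name. The members and gene lists were chosen with earlier results of these data known. The overlap code was tested on simulated data. Python 3.11.15, pandas 2.3.3, NumPy 2.4.6 and samtools 1.23.1 were used. Input and 22 RNA-seq samples were not analysed here. Other windows, scores, transcript sets, flanks and promoter definitions were tried.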

Additional observations from a re-analysis of the deposited data

How the results depend on the processing

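For 14 counts, 104 alternative values were computed, of which 88 stayed within 1.5 times the reported count. This rule looks at the count alone and not at the number of promoters it is taken from. With the 50% of peaks with the highest score in each list, members with Spin1, members with both, member promoters with Spin1 and member promoters with both each came to 3, since Dmd, Sgcd and Dtna lost their Spin1 peaks. Under the same setting, Spin1 peaks inside the genes came to 0, H3K4me3 peaks inside to 1, flank peaks to 4 for Spin1 and 8 for H3K4me3, and other complex genes with Spin1 to 7. With curated and predicted transcripts, Spin1 peaks inside the genes also came to 0, as the Sgca peak then lay at a promoter. The members then had 20 promoters, of which 9 had Spin1 and 12 had H3K4me3, where 7 and 9 of 11 were reported. Their shares thus fell, and the share over all promoters was not computed for that set. Flanks of 20 kb held 6 Spin1 and 14 H3K4me3 peaks and flanks of 100 kb held 26 and 37. Outside promoters of other genes, 6 and 14 of the flank peaks remained. The GENCODE transcripts were chosen after seeing the data and added Sgca for both marks and Nos1 for H3K4me3. With peak centers in the window, Sntb1 was lost for both marks.

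No paired analysis was possible because each antibody had 1 library and the RNA-seq samples, whose labels share replicate numbers, were not analysed here. With 1 library for each antibody, the spread between cultures is unknown, and a missing peak cannot be told apart from a weak one.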
